A study of Mus musculus with 5 samples.

Results

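The proteasome subunit genes were taken as the protein-coding genes of the deposited table whose symbol begins with Psma, Psmb, Psmc or Psmd followed by a number, with Psmb8, Psmb9 and Psmb10 left out. The symbols came from GENCODE, and 37 of 55401 genes in the table matched. The samples were mouse bone marrow mesenchymal stem cells (BMSCs), stromal cells of the marrow from which bone, fat and cartilage cells can arise, of wild-type (WT) genotype. They were cultured for 72 h and held under continuous negative pressure (NP) for 48 h at -80, -120, -160 or -200 mmHg, with a culture at 0 mmHg as the control. Strain, age and sex of the animals, and whether cells were pooled, are not given in the sources used here. Each condition was 1 RNA-seq library, so no difference below has a replicate check and no test between conditions was possible.

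The proteasome is the protease that degrades ubiquitin-tagged proteins in the cytosol and nucleus. Its core particle is a barrel of stacked rings, with alpha subunits that gate the entrance and beta subunits that line the chamber and include the catalytic ones. The regulatory particle caps the core: a base with a ring of ATPases unfolds the substrate, and a lid removes the ubiquitin chain. Transcription of most subunit genes is known to be raised together by Nfe2l1 when proteasome activity is short.

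Of the 37 genes, 31 encode structural subunits, 14 in the core particle (Psma1 to Psma7 and Psmb1 to Psmb7) and 17 in the regulatory particle (Psmc1 to Psmc6 and 11 Psmd genes). Psmd5, Psmd9 and Psmd10 encode chaperones that assist assembly of the base and are not part of the finished particle. Psma8 and Psmb11 encode subunits specific to testis and thymus. Psma8 had 0 reads in all 5 libraries, and a count of 0 allows up to 3 reads per library. Psmb11 had 0 reads in the control and 8, 3, 6 and 1 reads at -80, -120, -160 and -200 mmHg. Psmc3ip also matched, but it encodes a meiotic recombination cofactor that shares only the start of the symbol. A gene counted as measured with a mean of at least 1 FPKM (fragments per kilobase of exon, scaled for library depth) over the 5 libraries, which 35 of the 37 genes reached, all but Psma8 and Psmb11. In all, 12113 genes were measured.

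The 5 libraries held 16600622 to 18398911 reads. Stromal genes were expressed: the collagen gene Col1a1 was at 930 FPKM in the control and between 435 and 564 FPKM under pressure, and the receptor gene Pdgfra at 44.3 and 63.7 to 71.5 FPKM. Of 12 blood and macrophage markers 3 were measured, Cd68, Lyz2 and Cd14. All 3 rose at every pressure by the 2-fold rule given below, with log2 differences of 1.03 to 2.38. By the same rule 786 of 12113 measured genes rose at every pressure. The defining leukocyte gene Ptprc was at 0 FPKM in 4 libraries and at 0.00605 FPKM at -200 mmHg. Of 12 stromal markers 10 were measured, and 2 of them, Vim and Ly6a, fell at every pressure, as did 540 of 12113 measured genes. Thy1, a defining stromal marker, went the other way: it was at 0.0181 FPKM in the control, from 1 read, and at 1.51, 1.83, 1.001 and 1.48 FPKM at -80, -120, -160 and -200 mmHg, a rise at all but -160 mmHg. In bulk RNA, fewer cells of a type and less RNA per cell cannot be told apart. Reads from 4 Y-linked genes numbered 2493 in the control and 0 in each pressure library. Every comparison with the control uses that 1 library, so a different origin of its cells and an effect of pressure cannot be told apart. The pressure libraries are therefore also compared with each other.

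Transcripts of the core particle were lower in every pressure library than in the control, and those of the regulatory particle were less so, with a median that turned above the control when the libraries were set to a common FPKM sum. The FPKM of the 14 core genes summed to 1353 at 0 mmHg and to 831, 912, 909 and 954 at -80, -120, -160 and -200 mmHg, which is 61.4%, 67.4%, 67.2% and 70.5% of the control. The 17 regulatory genes summed to 990 in the control and to 811, 879, 866 and 889, or 81.9%, 88.7%, 87.4% and 89.8%. The sum over all genes of the table was lower under pressure as well, at 362360 in the control and 299328, 307958, 305865 and 313728. The ratio of the sums, core to regulatory, was 1.37 in the control and 1.02 to 1.07 under pressure. Among single genes, 33.3% of those measured had the control above all 4 pressure libraries and 51.5% below. How often ratios of other gene sets put the control apart was not counted. Reads of the 35 measured genes made up 0.614% of the control library and 0.454% to 0.508% of the pressure libraries.

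**Figure D1:**
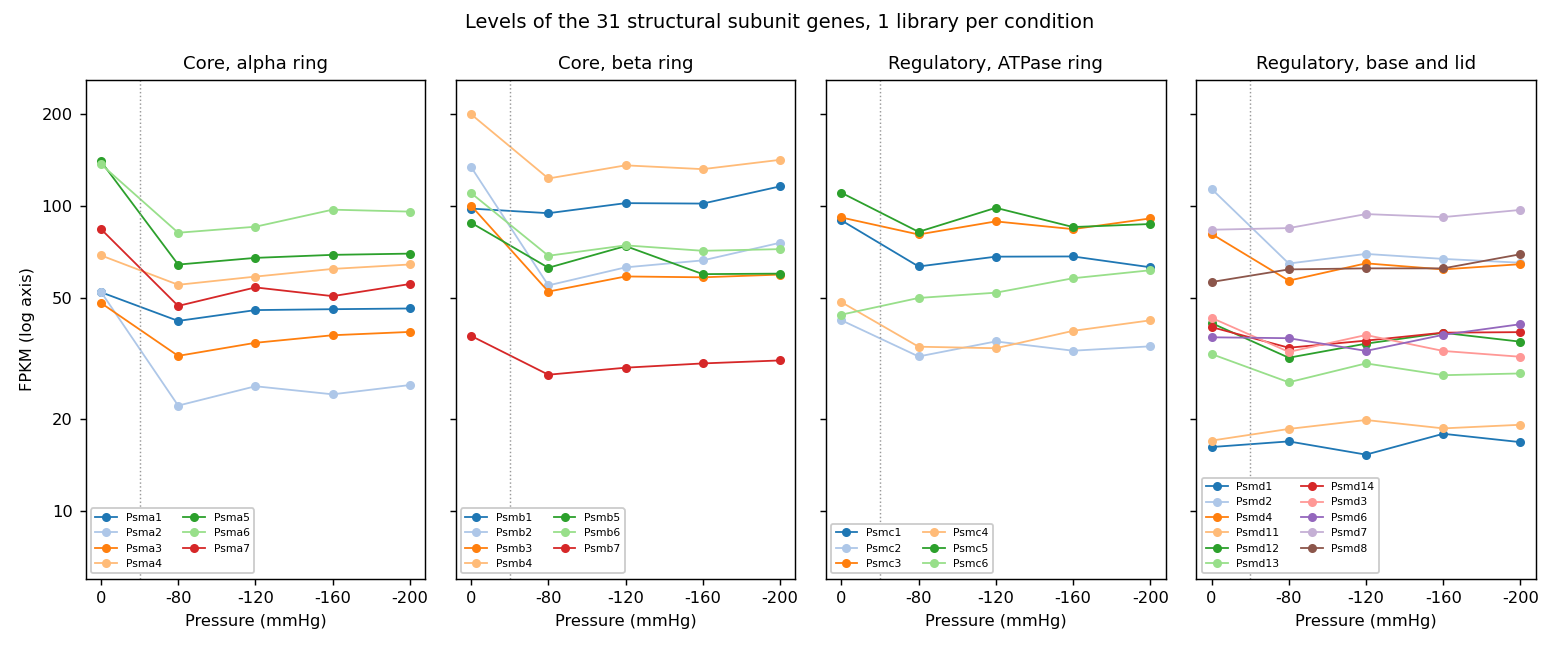
FPKM on a log axis (vertical) of the 31 structural subunit genes at 0, -80, -120, -160 and -200 mmHg (horizontal), 1 line per gene and 1 library per condition, in panels for the alpha ring, the beta ring, the ATPase ring, and the other base and lid genes. A dotted line sets the control apart, and there are no error bars because no condition was replicated. Psma5 is at 140 FPKM in the control and between 64.4 and 69.9 FPKM under pressure, while Psmd7 stays between 83.8 and 97.3 FPKM over all 5 libraries.

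Differences are given as log2(FPKM + 1) at a pressure minus the control, a scale that understates differences of genes with low values. A gene was said to have risen or fallen when this difference reached 1, a change of about 2-fold. By this rule 3 of 35 proteasome genes fell at -80 mmHg, where 6.89% of all measured genes fell. At -120 mmHg 4 fell, against 6.45% of all genes, at -160 mmHg 4, against 6.03%, and at -200 mmHg 0, against 6.38%. No proteasome gene rose at any pressure, where 10.7%, 8.85%, 9.59% and 9.1% of all genes rose in the same order of pressures. Several genes lie near the threshold: with a 1.5-fold rule 11, 9, 10 and 9 were lower at the 4 pressures, against 15.4%, 13.9%, 14% and 14.1% of all measured genes.

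The median difference of the 14 core genes was -0.68, -0.56, -0.57 and -0.53 at -80, -120, -160 and -200 mmHg. For the 17 regulatory genes it was -0.30, -0.14, -0.13 and -0.19, and for all measured genes 0.16, 0.14, 0.15 and 0.14. Both particles thus lay below the median gene at each pressure, the core by more. The control exceeded all 4 pressure libraries in 13 of 14 core genes and in 11 of 17 regulatory genes, as it did in 33.3% of all measured genes. It lay below all 4 in 4 regulatory genes, Psmc6, Psmd7, Psmd8 and Psmd11, and in 0 core genes, against 51.5% of all genes. The remaining 4 of the 35 genes, Psmb1, Psmd1, Psmd6 and Psmd5, had the control within the range of the pressures.

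**Figure D2:**
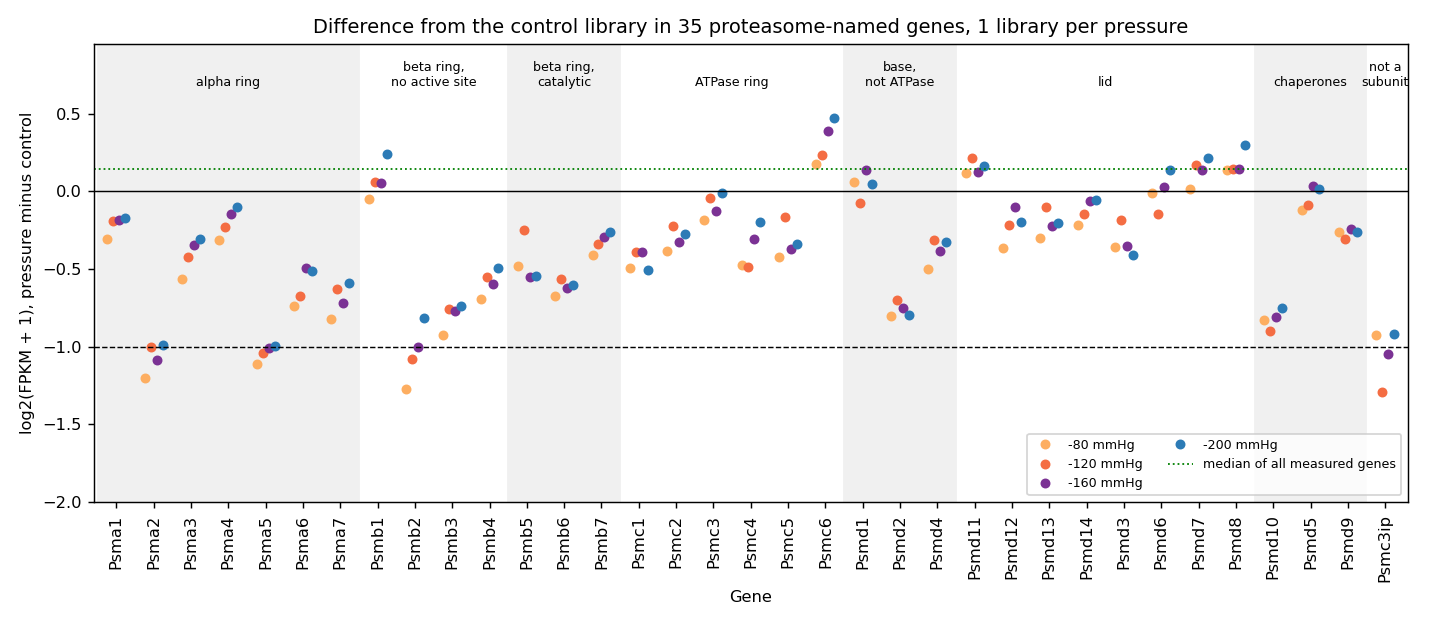
Difference in log2(FPKM + 1) from the control (vertical) for the 35 measured genes (horizontal), grouped by role, with 1 point per pressure library. The dashed line marks the threshold of -1, and the dotted line the median of all measured genes, 0.15 as a mean over the pressures. Points of Psma2, Psma5 and Psmb2 lie around the dashed line, and those of Psmc6 lie above 0 at all 4 pressures.

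Among the alpha ring genes, Psma2 and Psma5 showed the lowest values relative to the control. Psma2 (chr13:14613240-14674236, plus strand) was at 52.4 FPKM in the control and at 22.2, 25.7, 24.2 and 25.9 FPKM at -80, -120, -160 and -200 mmHg. Its level under pressure was 0.423 to 0.495 times the control, with 95% counting intervals that ran from 0.397 to 0.524 over the 4 libraries. It fell at 3 pressures, and its difference at -200 mmHg was -0.99. Psma5 (chr3:108256926-108279974, plus strand) was at 140 FPKM in the control and at 64.4, 67.7, 69.3 and 69.9 FPKM. It also fell at 3 pressures and missed the threshold at -200 mmHg, at -0.99. For both genes the control stood alone and the pressure libraries lay close together. Annotated exons of Psma5 share 4.54% of their length with an antisense gene, 1700010K24Rik, whose reads could be counted in part with it.

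The other alpha genes did not pass the rule. Psma7 was at 84.2 FPKM in the control and at 47.1, 54.2, 50.7 and 55.6 FPKM under pressure, a mean difference of -0.69. Psma6 was at 137 FPKM and at 81.9, 85.7, 97.5 and 96.0 FPKM, a mean difference of -0.60. Both control values lay above all 4 pressure values. Psma3 was at 48.2 FPKM in the control and at 32.3, 35.7, 37.8 and 38.7 FPKM. Psma1 and Psma4 differed least in the ring, with mean differences of -0.21 and -0.20.

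In the beta ring, Psmb2 was the gene that fell furthest. Psmb2 (chr4:126677630-126709714, plus strand), a subunit without an active site of its own, was at 134 FPKM in the control and at 55.0, 63.0, 66.4 and 75.9 FPKM at -80, -120, -160 and -200 mmHg. It fell by 1.27, 1.08 and 1.005 at the first 3 pressures, and its difference at -200 mmHg was -0.82. The values were higher at each stronger pressure, and all lay far below the control. Psmb3 was at 100.4 FPKM in the control and at 52.5, 58.9, 58.5 and 59.7 FPKM, with a mean difference of -0.80. Psmb4, the most abundant member in every library, was at 200.2 FPKM and at 123, 136, 132 and 142 FPKM, with a mean difference of -0.58. Psmb1 was the exception in the core, at 98.2 FPKM in the control and at 94.9, 102, 102 and 116 FPKM.

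The catalytic genes were lower in each pressure library, but none passed the rule. Psmb5 encodes the subunit with chymotrypsin-like activity, which proteasome inhibitor drugs chiefly block. It was at 88.3 FPKM in the control and at 62.8, 74.0, 59.9 and 60.1 FPKM. Psmb6, with caspase-like activity, was at 110 FPKM and at 68.8, 74.4, 71.4 and 72.3 FPKM. Psmb7, with trypsin-like activity, was at 37.6 FPKM and at 28.0, 29.5, 30.5 and 31.2 FPKM. Their mean differences were -0.46, -0.62 and -0.32, and in each gene the control lay above all 4 pressure values. Psmb5 shares 12.1% of its exon length with the miRNA gene Mir686 on the same strand, and Psmb7 shares 11.8% with Nek6 on the opposite strand.

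RefSeq promoter windows on GRCm38.p6, from 250 bases before to 50 after an annotated start, were present for 25 of the 31 structural genes. They are shown for Psma2 and Psma5, which fell, and for Psmb5, Psmb6 and Psmc6, which hold 1 of the motifs described here, the first 2 being catalytic genes and Psmc6 the subunit gene with the highest mean difference. Each sequence is the longest stretch of the 250 upstream bases that no annotated exon covers, written 5′ to 3′ on the gene's strand. Capitals mark matches, on either strand, to TGACNNNGC, the core of the antioxidant response element that Nfe2l1 and its relatives bind, or to CCAAT, the CCAAT box. The stretches are chr13:14613166-14613239 (plus strand) for Psma2, chr3:108256676-108256877 (plus) for Psma5, chr14:54618023-54618245 (minus) for Psmb5, chr11:70525107-70525356 (plus) for Psmb6 and chr14:45329574-45329787 (plus) for Psmc6.
Psma2: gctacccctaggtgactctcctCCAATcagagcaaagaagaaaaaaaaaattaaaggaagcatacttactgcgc
Psma5: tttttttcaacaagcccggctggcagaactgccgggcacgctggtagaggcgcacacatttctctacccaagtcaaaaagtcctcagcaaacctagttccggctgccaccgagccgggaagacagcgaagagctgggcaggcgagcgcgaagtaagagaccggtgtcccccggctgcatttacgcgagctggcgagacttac
Psmb5: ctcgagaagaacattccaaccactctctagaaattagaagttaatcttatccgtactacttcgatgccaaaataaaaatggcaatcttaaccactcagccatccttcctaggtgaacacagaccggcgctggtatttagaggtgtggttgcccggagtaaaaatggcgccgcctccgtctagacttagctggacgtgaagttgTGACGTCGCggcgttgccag
Psmb6: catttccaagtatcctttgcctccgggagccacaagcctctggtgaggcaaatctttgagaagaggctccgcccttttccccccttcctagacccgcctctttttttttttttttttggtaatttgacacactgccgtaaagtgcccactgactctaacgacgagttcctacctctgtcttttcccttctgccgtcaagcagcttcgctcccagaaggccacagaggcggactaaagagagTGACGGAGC
Psmc6: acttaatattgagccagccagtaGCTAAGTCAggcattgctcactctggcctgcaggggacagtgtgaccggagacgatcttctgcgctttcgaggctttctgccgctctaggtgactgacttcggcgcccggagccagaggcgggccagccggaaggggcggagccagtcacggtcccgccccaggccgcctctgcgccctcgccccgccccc
The stretch of Psma2 is short because exons of the neighbouring gene Mrpl32 cover much of its window. Its CCAAT match begins 54 bases before the start. In Psmb5 the TGACNNNGC match begins 47 bases before the start, and in Psmb6 it begins 9 bases before. In Psmc6 it lies on the other strand, 227 bases before. The Psma5 stretch holds neither motif.

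Over the full windows of 300 bases, TGACNNNGC occurred in 4 of 25 structural genes (16%; Psmb5, Psmb6, Psmc6 and Psmd12), as against 13.99% of 27025 genes with a window. CCAAT occurred in 10 of 25 (40%), as against 41.1% of all genes. By particle, CCAAT occurred in 6 of 11 core and 4 of 14 regulatory genes, and TGACNNNGC in 2 of 11 and 2 of 14. None of these 25 genes held both motifs, but the share of all genes that hold both was not counted. The shares of the subunit genes were near those of all genes, and the letters alone say nothing of binding. Psmb2 had no window.

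The regulatory particle split by part. Of its 17 genes 0 fell and 0 rose at any pressure, while 1068 of 12113 measured genes fell and 1593 rose at some pressure. Whether 0 of 17 differs from these shares was not tested. The ring of ATPases and the base lay lower than the lid. The median difference of the 6 ATPase genes was -0.40, -0.19, -0.31 and -0.24 at -80, -120, -160 and -200 mmHg. The 8 lid genes had medians of -0.11, -0.12, -0.02 and 0.04. The lid medians therefore stayed close to 0 while remaining below the median of all genes.

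In the ATPase ring 5 of 6 genes had their highest value in the control, against 33.3% of all measured genes. Psmc1 was at 89.9 FPKM in the control and at 63.5, 68.3, 68.5 and 63.1 FPKM under pressure, a mean difference of -0.44. Psmc5 was at 111 FPKM and at 82.4, 98.8, 85.5 and 87.4 FPKM. Psmc6 (chr14:45329788-45349705, plus strand) went the other way, at 44.1 FPKM in the control and at 50.03, 52.1, 58.1 and 61.7 FPKM at -80, -120, -160 and -200 mmHg. Its differences were 0.18, 0.23, 0.39 and 0.47, below the threshold, and the counting interval of its ratio to the control lay above 1 in each library, from 1.08 to 1.195 at -80 mmHg and from 1.33 to 1.47 at -200 mmHg. Psmc6 thus had the control as its lowest value while its 5 partners in the ring had it as their highest. Psmc2 and Psmc4 had mean differences of -0.30 and -0.37, and Psmc3 of -0.09. For Psmc3 the counting interval of the ratio to the control held 1 at -120 mmHg (0.929 to 1.014) and -200 mmHg (0.952 to 1.036).

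Psmd2 stood apart in the regulatory particle. It encodes one of the large scaffold subunits of the base, and it was at 114 FPKM in the control and at 64.9, 69.8, 67.2 and 65.3 FPKM under pressure. Its mean difference was -0.76, and its 4 pressure values spanned only 0.10 on the log2(FPKM + 1) scale. Psmd1, the other large scaffold subunit of the base, was at 16.2 FPKM in the control and at 16.9, 15.3, 17.9 and 16.8 FPKM, so the control lay inside the range. Psmd4, a ubiquitin receptor, was at 81.1 FPKM in the control and at 57.0, 65.0, 62.1 and 64.6 FPKM.

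Psmd14, the lid deubiquitinase that removes the chain, was at 40.1 FPKM in the control and at 34.4, 36.3, 38.5 and 38.6 FPKM. Psmd7, its partner, was at 83.8 FPKM in the control and at 84.8, 94.3, 92.1 and 97.3 FPKM. The control was thus the highest value of Psmd14 and the lowest of Psmd7, by little at some pressures. The counting interval of the ratio to the control held 1 for Psmd7 at -80 mmHg (0.965 to 1.063). It also held 1 for Psmd14 at -160 mmHg (0.900 to 1.021) and -200 mmHg (0.905 to 1.024). Psmd8 was at 56.4 FPKM in the control and at 62.1, 62.6, 62.5 and 69.6 FPKM, and Psmd11 at 17.04 FPKM and at 18.6, 19.9, 18.7 and 19.2 FPKM. Psmd3, Psmd12 and Psmd13 had mean differences of -0.33, -0.22 and -0.21, and Psmd6 of 0.00.

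Of the other matched genes, Psmd10, also known as gankyrin, was at 45.8 FPKM in the control and at 25.4, 24.2, 25.8 and 26.8 FPKM under pressure. Its mean difference was -0.82, lower than that of any of the 17 regulatory genes. Psmd5 and Psmd9 had mean differences of -0.04 and -0.27, and 25.5% of the exon length of Psmd9 lies over the antisense gene Gm26745. Psmc3ip was at 6.49 FPKM in the control and at 2.94, 2.05, 2.62 and 2.95 FPKM, and it fell at -120 and -160 mmHg. It accounts for 1 of the 4 falls at each of these pressures, with 21.2% of its exon length over Mlx. The proliferation genes Mki67 and Top2a, chosen after their values were seen, were also lower: Mki67 at 13.5 FPKM in the control and between 4.197 and 7.13 FPKM under pressure, and Top2a at 30.3 and 8.23 to 13.5 FPKM. Their part in the lower proteasome values was not tested.

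Core and regulatory genes also differ in length, and across the table the difference from the control moved with length. The core genes have coding lengths of 603 to 831 nt and the regulatory genes 930 to 2859 nt. Among all measured protein-coding genes, the mean of the 4 differences had a median of 0.01 for the 1506 genes with a coding length over 600 and up to 900 nt, where all 14 core genes lie, with a core median of -0.59. Between 900 and 1200 nt the median was 0.12 over 1627 genes and 0.00 over 7 regulatory genes. Between 1200 and 1800 nt it was 0.18 over 2525 genes and -0.31 over 8 regulatory genes. Both particles thus lay below genes of like length, and shorter genes as a whole lay lower than longer ones.

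**Figure D3:**
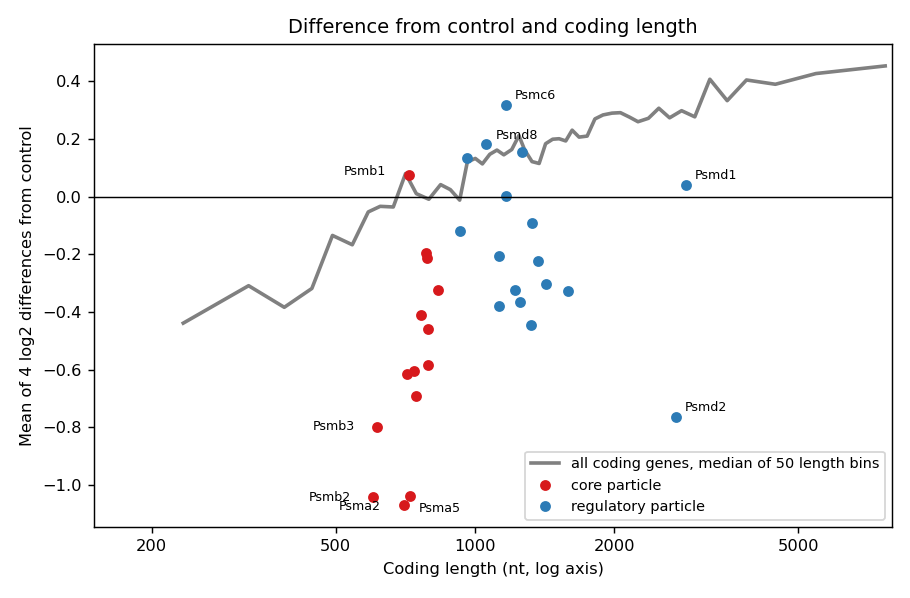
Mean of the 4 log2(FPKM + 1) differences from the control (vertical) against coding length in nt on a log axis (horizontal) for the 14 core genes (red) and 17 regulatory genes (blue). The grey line joins the medians of 50 bins of all measured protein-coding genes. Core genes lie between 603 and 831 nt and all but Psmb1 lie below the grey line, with Psma2, Psma5 and Psmb2 lowest, and Psmd2 is the lowest of the regulatory genes.

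Removal of the trend with coding length, an alternative chosen after the data were seen, moved the gap between the core and regulatory medians from -0.40 to -0.25. The core median moved from -0.59 to -0.44. With coding length and level held alike, at 600 to 900 nt and a mean of 40 to 160 FPKM, the 209 genes of the table had a median of -0.13 and the 11 core genes among them -0.60. For single genes, Psma2 had a mean difference of -1.07 before and -1.01 after removal, Psma5 -1.04 and -0.98, Psmb2 -1.04 and -0.83, and Psmd2 -0.76 and -0.87. Over the 31 structural genes, the mean difference and coding length had a Pearson r of 0.38 and a Spearman rho of 0.46, and over 10711 coding genes r was 0.23. Within the particles the signs differed, with r at 0.59 and rho at 0.64 over the 14 core genes and r at -0.39 and rho at -0.36 over the 17 regulatory genes. The level in the control, which itself enters the difference, had an r of -0.56 over the structural genes and -0.43 over the coding genes. Within the core and regulatory particles this r was -0.34 and -0.49. Median control levels were 93.3 FPKM for the core and 44.1 FPKM for the regulatory genes. These are descriptions across genes that share the same 5 libraries.

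The scale of the whole library bears on every value as well. The FPKM of all genes summed to 362360 in the control and to 299328 to 313728 in the pressure libraries. Against the mean of 0.15 for the median of all genes, a trimmed mean of log ratios set that median to 0.00, quantile normalization to 0.03, and rescaling to a common FPKM sum, chosen after the data were seen, to 0.34. Under 6 scalings, counting the deposited FPKM, 24 of the 35 genes kept one sign in their mean difference, 21 below the control and 3 above. The 3 above were Psmc6, Psmd8 and Psmd11. The sign turned under at least 1 scaling in 11 genes: Psma1, Psma4, Psmb1, Psmc3, Psmd1, Psmd5, Psmd6, Psmd7, Psmd12, Psmd13 and Psmd14. The regulatory median was -0.19 on the deposited values and 0.045 with a common FPKM sum, whereas the core median was -0.59 and -0.35.

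Between the pressures themselves, where the control plays no part, the proteasome genes differed little. In the 6 pairs of pressures 0 of 35 genes differed 2-fold, while few of all measured genes did. That share was 0.883% for -120 against -80 mmHg, 0.9% for -160 against -80 mmHg, 0.826% for -200 against -80 mmHg, 0.974% for -160 against -120 mmHg, 0.85% for -200 against -120 mmHg and 0.9% for -200 against -160 mmHg. All 35 genes are protein-coding, and 2-fold differences were rarer among the 10711 measured protein-coding genes. No more than 3 of those were higher and no more than 3 lower in any pair. The span of the 4 pressure values on the log2(FPKM + 1) scale had a median of 0.20 over the 35 genes and of 0.22 over all genes. Its largest value was 0.46, in Psmb2.

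Within that narrow span the libraries had an order. The -80 mmHg library held the lowest of the 4 pressure values in 26 of 35 genes, against 25.9% of all measured genes, with 13 of 14 core and 12 of 17 regulatory genes. The -200 mmHg library held the highest value in 20 of 35, against 23.6% of all genes, with 11 of 14 core and 7 of 17 regulatory genes. The values increased at every step from -80 to -200 mmHg in 8 genes, against 5.67% of all genes, and decreased at every step in 0, against 6.19%. In 6 of the 8 the gene belonged to the core.

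Between -80 and -200 mmHg the median difference of the 35 genes was 0.15, while that of all genes was -0.01. The ratio of -200 to -80 mmHg was 1.38 for Psmb2, with a 95% counting interval of 1.28 to 1.49. It was 1.23 for Psmc6 (1.17 to 1.29), 1.22 for Psmb1 (1.19 to 1.26) and 1.22 for Psmc4 (1.13 to 1.31). The interval lay above 1 in 23 of 35 genes and below 1 in 0, against 18% and 21.6% of 11911 genes of the table. These intervals hold counting error only, not the variation between cultures, and 1 library stands for each pressure. Of 79 measured cytosolic ribosomal protein genes, -80 mmHg was lowest in 58 and -200 mmHg highest in 67, but the values increased at every step in 4 only. A difference between these 2 libraries as a whole was not tested as its source.

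**Figure D4:**
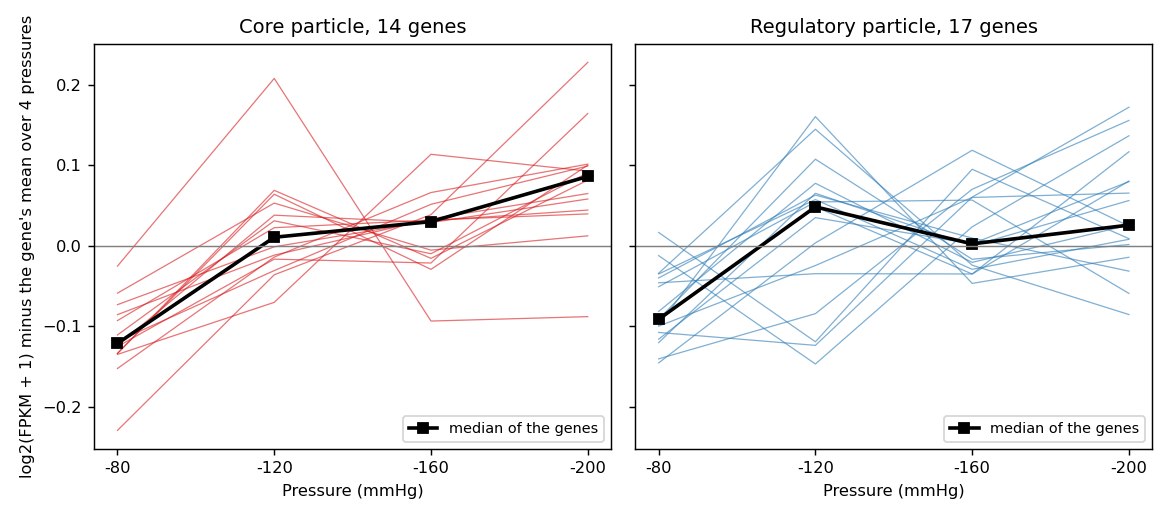
The log2(FPKM + 1) value of each gene minus its own mean over the 4 pressure libraries (vertical) at -80, -120, -160 and -200 mmHg (horizontal), for 14 core genes and 17 regulatory genes. Thin lines are genes and black squares their median, with 1 library per pressure. The core lines are lowest at -80 mmHg in 13 of 14 genes and highest at -200 mmHg in 11 of 14.

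The catalytic subunits have inducible counterparts in the immunoproteasome, which replace them in immune cells and under interferon and were left out of the 37 genes. All of these fell. Psmb8, the counterpart of Psmb5, was at 13.0 FPKM in the control and at 4.48, 5.33, 4.92 and 4.57 FPKM at -80, -120, -160 and -200 mmHg. Psmb9, the counterpart of Psmb6, was at 7.34 FPKM and at 2.05, 3.29, 2.92 and 2.69 FPKM. Psmb10, the counterpart of Psmb7, was at 63.6 FPKM and at 23.9, 24.9, 25.6 and 23.4 FPKM. Psmb8 and Psmb10 fell at every pressure, and Psmb9 at all but -120 mmHg, where its difference was -0.96.

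The constitutive genes were lower by less than their counterparts, so the ratios moved. The ratio of Psmb5 to Psmb8, in FPKM, was 6.77 in the control and 12.2 to 14.03 under pressure. That of Psmb6 to Psmb9 was 15.1 and 22.6 to 33.5. That of Psmb7 to Psmb10 was 0.590 in the control and 1.17 to 1.34 under pressure, so Psmb10 exceeded Psmb7 in the control alone. In each pair the control ratio lay below all 4 pressure ratios. Among single genes the control also often stood apart, above all 4 pressure libraries in 33.3% of measured genes and below in 51.5%. The share of other gene pairs with such a ratio was not counted.

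**Figure D5:**
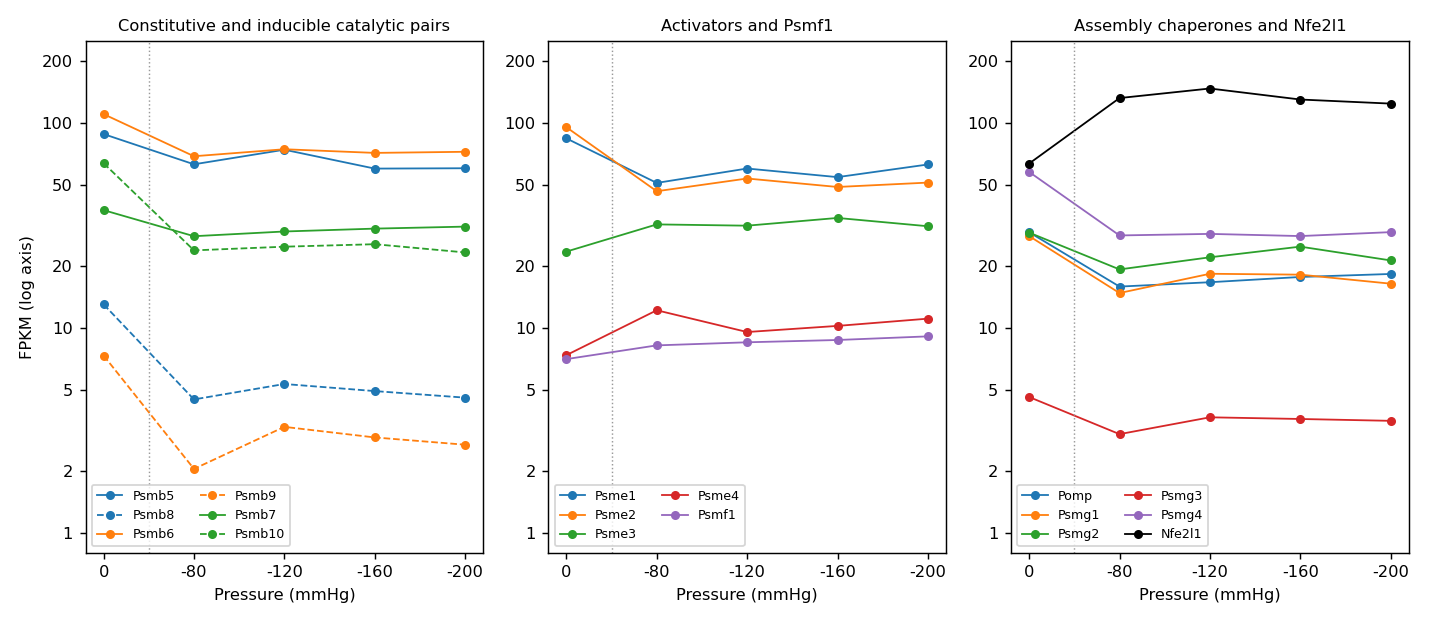
FPKM on a log axis (vertical) at 0, -80, -120, -160 and -200 mmHg (horizontal), 1 library per condition, for the catalytic pairs (constitutive solid, inducible dashed, 1 colour per pair), for the activators with Psmf1, and for the assembly chaperones with Nfe2l1. The dotted line sets the control apart. Psmb10 is above Psmb7 in the control and below it under pressure, and Nfe2l1 goes from 63.4 FPKM to between 124 and 147 FPKM.

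The activators did not share a direction. Psme1 and Psme2 encode the interferon-inducible 11S activator that works with the immunoproteasome. Psme1 was at 84.1 FPKM in the control and between 51.0 and 62.7 FPKM under pressure, and Psme2 was at 95.3 and 46.4 to 53.6 FPKM, a fall at -80 mmHg only. A near-identical paralog, Psme2b, may share reads with Psme2. The nuclear activators lay on the other side of the control: Psme3 was at 23.6 FPKM in the control and between 31.3 and 34.4 FPKM under pressure, and Psme4 at 7.37 and 9.55 to 12.2 FPKM. Psmf1, which binds and inhibits the core in vitro, was at 7.05 and 8.22 to 9.10 FPKM. Psme3, Psme4 and Psmf1 did not pass the rule. Of the 5 genes, 3 had the control below all 4 pressure libraries and 2 above, beside 51.5% and 33.3% of all measured genes. Psme4 has a coding length of 5529 nt and a mean difference of 0.49, and coding genes over 3000 nt had a median of 0.39. Psme3 has 762 nt and a mean difference of 0.44, and coding genes of 600 to 900 nt had a median of 0.01. Whether direction goes with the type of activator was not tested.

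Further subunits of the regulatory particle outside the symbol rule went separate ways. Sem1, a small lid subunit, was at 62.3 FPKM in the control and at 30.3 to 33.8 FPKM, and it fell at -80 mmHg. The ubiquitin receptor Adrm1 was at 24.1 FPKM in the control and between 23.1 and 25.9 FPKM under pressure, with the control inside the range. All 5 chaperones of core assembly had their highest value in the control, as had 33.3% of all measured genes. Pomp, which guides the joining of partly built cores, was at 29.3 FPKM and at 15.9 to 18.3 FPKM. Psmg4 was at 57.7 and 28.1 to 29.3 FPKM and fell at -80 and -160 mmHg. Psmg1, Psmg2 and Psmg3 had mean differences of -0.70, -0.40 and -0.33. The median of the 5 was -0.84, -0.58, -0.60 and -0.65 at the 4 pressures, beside -0.68, -0.56, -0.57 and -0.53 for the 14 core genes. The 5 genes are short, with a median coding length of 423 nt. All coding genes of up to 600 nt had a median of -0.26.

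Nfe2l1, the transcription factor of subunit genes, was higher under pressure, where most subunit genes were lower. It was at 63.4 FPKM in the control and at 132, 147, 130 and 124 FPKM at -80, -120, -160 and -200 mmHg. It rose at 3 pressures, by 1.05, 1.203 and 1.03, and its difference at -200 mmHg was 0.96. The control lay below all 4 values. The list around Nfe2l1 held 12 measured genes: Nfe2l1 itself, its relative Nfe2l2, the factors that process it, and Maf partners. Of these 12, 11 had the control below all 4 pressure libraries, as had 51.5% of all measured genes, and Nfe2l1 alone passed the rule. Their median was 0.40, 0.35, 0.38 and 0.38, above the 0.16, 0.14, 0.15 and 0.14 of all measured genes. Their median coding length was 1807.5 nt, and coding genes of 1200 to 1800 nt and of 1800 to 3000 nt had medians of 0.18 and 0.28. The exception, Ufd1, was at 16.8 FPKM in the control and at 10.95 to 12.1 FPKM.

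Ubiquitin genes showed no common direction, while most of the listed receptors were higher under pressure. Ubb was at 529 FPKM in the control and between 391 and 458 FPKM under pressure. Rps27a, which encodes ubiquitin fused to a ribosomal protein, fell from 604 FPKM to 264, 273 and 271 FPKM at the first 3 pressures and was at 305 FPKM at -200 mmHg. It was named after its values were seen, as was Zfand5, a zinc-finger activator of the proteasome. Zfand5 was at 7.87 FPKM in the control and at 18.2, 15.8, 18.5 and 16.6 FPKM, and it rose at -80 and -160 mmHg. The proteasome-bound deubiquitinases Usp14 and Uchl5 were at 9.48 and 6.98 FPKM in the control, with 7.72 to 8.45 FPKM and 4.70 to 6.60 FPKM under pressure. Of the 10 receptors that carry ubiquitinated proteins or activate the proteasome, 8 had the control below all 4 pressure libraries and 2, Sqstm1 and Ubqln4, had it above, against 51.5% and 33.3% of all measured genes. The median of the 10 receptors was 0.35, 0.33, 0.33 and 0.27 at the 4 pressures, beside 0.16, 0.14, 0.15 and 0.14 for all measured genes. Their median coding length was 1287 nt, and coding genes of 1200 to 1800 nt had a median of 0.18. Ddi2 was on this list and also on that of Nfe2l1. Of 4 measured factors that assist proteasome assembly or transport, Ecpas and Akirin2 had the control below all 4 pressure libraries and Txnl1 and Ipo9 above, beside the same 51.5% and 33.3%, and 0 passed the rule.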

How the data were processed

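RNA-seq was available for 5 libraries of cultured mouse BMSCs, 1 per pressure, as 1 deposited table of FPKM per gene. Per the submitters' processing notes, the authors used HISAT2, SAMtools and featureCounts 1.5.0-p3 and named rn6, a genome build of the rat. The gene IDs are all from mouse Ensembl, so GENCODE M21 (GRCm38) gave symbols, biotypes and lengths, and 55141 of 55401 IDs matched. Whether strand was used in counting is not stated there, so genes with overlapping exons may share reads.

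FPKM multiplied by the summed exon length gave whole reads in 54719 genes (98.8%; tolerance 0.001 reads), among them all 37 genes described here. These reads served only for library totals and for exact Clopper-Pearson counting intervals (95%), which hold counting error only: without molecular identifiers, reads are not independent molecules.

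Differences used log2(FPKM + 1) over genes whose mean reached 1 FPKM. With 1 library per condition no test was run. A gene was called at a difference of at least 1. Coding length is the longest coding sequence of a principal transcript. The 250-base upstream sequences came from RefSeq.

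The genes and lists were chosen with earlier results of these data known. Named were all genes of the symbol rule, the immunoproteasome, activator, further regulatory and core assembly lists, Nfe2l1, Ubb, Usp14 and Uchl5, any other listed gene called at all 4 pressures, and up to 4 markers a list. A gene that this rule names is not reported here. Rps27a, Zfand5, Mki67, Top2a and genes given as exceptions in a count were named outside it, after their values were seen. Lists were written from textbook roles, and 1 listed gene, Paaf1, was not matched and is not analysed here. The alternatives were pseudocounts of 0.1 and 5, quantile normalization, coding genes only, upper-quartile scaling, no filter or one at 5 FPKM, a trimmed mean of log ratios (30% off each end), omission of the 50 most abundant genes, the exon length trend removed in 50 bins, a 1.5-fold rule and structural subunits only. The functions were tested on simulated data. Tools were Python 3.11.15 with scipy 1.17.1, pandas 2.3.3, numpy 2.4.6 and, for figures, matplotlib 3.10.9.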

Additional observations from a re-analysis of the deposited data

How the results depend on the processing

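The counts of called genes depend on the threshold and the scale, and the order of core below regulatory genes does not among the alternatives run. With a 1.5-fold rule 11, 9, 10 and 9 proteasome genes were lower at -80, -120, -160 and -200 mmHg, and of the other related genes 7 were lower and 9 higher at any pressure (4 and 2 with the 2-fold rule). A pseudocount of 0.1 gave 3 lower at -200 mmHg. A pseudocount of 5 gave 1 at -120 and 0 at -160 mmHg, an immunoproteasome median of -0.88 (reported -1.28), and 1 other related gene lower and 1 higher. A trimmed mean gave 5 lower at -80 and 3 at -200 mmHg, medians of -0.46 for all proteasome genes (reported -0.32), -0.73 for the core (-0.59) and -0.34 for the regulatory particle (-0.19), and 1 related gene higher. Quantile normalization gave 1 lower at each of -120, -160 and -200 mmHg, medians of -0.20, -0.37 and -0.10, a gap between core and regulatory medians of -0.28 (reported -0.40) and 0 related genes lower. With the exon length trend removed 1, 1 and 0 were lower at -80, -120 and -160 mmHg, the medians were -0.19, -0.34 and -0.029, that of the immunoproteasome -1.05, and 1 related gene was lower. With the coding length trend removed 2 and 0 were lower at -120 and -160 mmHg, the core median was -0.44, the gap -0.25, and 0 related genes were lower and 4 higher. A common FPKM sum gave 1, 1 and 0 lower at -80, -120 and -160 mmHg, medians of -0.083, -0.35 and 0.045, the last a reversal, an immunoproteasome median of -1.05, and 0 related genes lower and 4 higher. The last 2 alternatives were added after the data were seen. Those that rescale or detrend change the values by their construction, and no other cause was tested. The median difference between -200 and -80 mmHg stayed at 0.08 to 0.16, and the count of 0 calls between pressures held, under all alternatives run.

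No paired analysis was possible because each condition has 1 library and the labels carry no replicate numbers. For the same reason leaving out a replicate was not run, and no value here has an error between cultures. Depth limits Psma8 and Psmb11, at or near 0 reads, and not the structural subunits, each with at least 916 reads in each library.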
